A study of Mus musculus with 2 samples.

Results

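Glycogen is the branched glucose store of the cell, and the epithelium that covers the cornea holds a store of it. Glycogenin primes each particle with a short glucose chain, glycogen synthase lengthens the chains from UDP-glucose, and the branching enzyme joins new branches to them. Glycogen phosphorylase releases glucose from the chain ends, and protein phosphatase 1, carried to the particle by glycogen-targeting subunits, switches synthase on and phosphorylase off. In the classical view, corneal epithelial cells draw on this store after an injury.

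The glycogen storage and breakdown genes described here are 6 of the 20198 genes in the deposited count table. They are *Gyg* (glycogenin), *Gys1* (the widely expressed glycogen synthase), *Gbe1* (the branching enzyme), *Pygl* (the phosphorylase isozyme known from liver), *Ugp2* (the enzyme that makes UDP-glucose) and *Ppp1r3c* (a glycogen-targeting subunit of protein phosphatase 1). They were chosen by name, with earlier results of these data known, and all 6 were found in the table. Each was read in every deposited cell cluster of both libraries.

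Corneas of young adult male mice, of a strain not given in the sources used here, were dissociated and profiled by droplet single-cell RNA sequencing, which counts RNA molecules by their unique molecular identifiers (UMIs). The UW library pooled corneas of 4 unwounded mice, and the W library pooled corneas of 4 mice taken 24 h after the central corneal epithelium had been scraped off. UW held 16450 cells with a median of 22014 UMIs, W held 12417 cells with a median of 20290, and 52 cell barcodes occurred in both libraries. With 1 library per condition, and mice not told apart in the deposited table of cells, the wound, the mice and the library cannot be told apart, and no test was made. Counts were summed over the cells of a cluster or group of clusters and are given as counts per 1000000 UMIs (CPM) of that sum, with intervals at the 95% level that cover counting error only. A gene was called lower or higher in W when its level differed by at least 2-fold, among genes with at least 20 counts over both libraries and at least 1 CPM in one of them.

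The clusters are the authors' own and carry numbers from 0 to 17, with no cells under 12. By marker genes, clusters 1 to 9 and 11 (13501 cells in UW and 8507 in W) were epithelial. Cluster 3 was basal-like, 1 and 4 suprabasal-like, 2 and 6 superficial-like, 5 conjunctival-like and 9 limbal-like, and clusters 8 and 11 were led by genes of mitosis and of S phase. Cluster 7 was led by *Lce3a*, *Crct1* and *Krt23*, genes of terminal superficial cells, and scored below 0 (-0.82) for the general epithelial list. Cluster 0 (2369 and 1719 cells) was stromal keratocyte-like. Cluster 10 (565 and 632 cells) scored highest for corneal endothelium but was led by *Penk*, *Myoc* and *Fmod*, so it is called by its number. Clusters 13 to 16 were neutrophil-like, monocyte or macrophage-like (14 and 15) and T cell-like, and came almost wholly from W, with 710, 354, 251 and 215 cells there. Cluster 17 held 29 cells, all of W, and was left unnamed. The authors made the clusters from the expression of all genes, *Pygl* is the leading gene of cluster 1 and *Ppp1r3c* is among the 10 leading genes of cluster 2, so differences between clusters are descriptions.

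In GENCODE M21 (GRCm38), *Gyg* lies at chr3:20122084-20155317 on the minus strand, *Gys1* at chr7:45434844-45456619 on the plus strand, *Gbe1* at chr16:70313949-70569716 on the plus strand, *Pygl* at chr12:70190811-70231488 on the minus strand, *Ugp2* at chr11:21321138-21371201 on the minus strand and *Ppp1r3c* at chr19:36731731-36736653 on the minus strand. *Gys1* overlaps *Ruvbl2* and *Pygl* overlaps the non-coding *F730035M05Rik*, each on the opposite strand. *Ugp2* overlaps 2 annotated genes that the count table used here does not list. Whether the counting used strand is not given in the sources used here.

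For the 4 genes that were lower in the wounded epithelium by the rule, the 250 bases before the RefSeq transcription start (GRCm38.p6) are printed, since they precede the genes that the comparison turns on. They lie at chr3:20155117-20155366 for *Gyg*, chr16:70313699-70313948 for *Gbe1*, chr12:70227684-70227933 for *Pygl* and chr19:36736605-36736854 for *Ppp1r3c*, on the strand of each gene. The windows of *Gyg* and *Ppp1r3c* lie in part, and that of *Pygl* wholly, inside the longer GENCODE gene. Capitals mark matches on either strand to ACGTG, the core that hypoxia-inducible factors bind, and GGGCGG, the Sp1 box.
Gyg: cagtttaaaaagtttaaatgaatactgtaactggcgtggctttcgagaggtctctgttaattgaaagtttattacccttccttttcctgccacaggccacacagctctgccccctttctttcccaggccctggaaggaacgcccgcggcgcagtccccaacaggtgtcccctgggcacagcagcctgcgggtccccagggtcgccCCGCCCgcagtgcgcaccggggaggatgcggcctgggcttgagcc
Gbe1: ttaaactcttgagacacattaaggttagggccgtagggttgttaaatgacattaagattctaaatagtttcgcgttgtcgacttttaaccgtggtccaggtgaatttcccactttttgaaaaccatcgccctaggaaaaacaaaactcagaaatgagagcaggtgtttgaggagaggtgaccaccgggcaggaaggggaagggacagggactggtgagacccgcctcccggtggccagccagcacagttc
Pygl: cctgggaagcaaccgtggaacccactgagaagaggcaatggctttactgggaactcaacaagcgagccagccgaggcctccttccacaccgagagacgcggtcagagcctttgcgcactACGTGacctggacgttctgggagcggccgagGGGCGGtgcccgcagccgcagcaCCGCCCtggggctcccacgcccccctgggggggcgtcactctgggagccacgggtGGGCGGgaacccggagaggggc
Ppp1r3c: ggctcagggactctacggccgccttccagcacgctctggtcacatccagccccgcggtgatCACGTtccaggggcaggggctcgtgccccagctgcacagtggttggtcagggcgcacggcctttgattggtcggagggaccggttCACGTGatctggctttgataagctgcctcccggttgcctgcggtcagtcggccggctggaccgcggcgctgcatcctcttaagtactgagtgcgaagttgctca
*Ppp1r3c* held ACGTG at both capital runs, the second of which is the palindrome CACGTG, an E-box that holds ACGTG on both strands. *Pygl* held 1 ACGTG and 3 GGGCGG, *Gyg* held 1 GGGCGG, and these letters were not in the window of *Gbe1*. Of 32851 RefSeq mouse windows of this length, 16.6% held ACGTG, 6.02% held CACGTG and 32.7% held GGGCGG. Of the genes not lowered, *Gys1* held 2 GGGCGG, and of the windows of *Ugp2*, one held ACGTG and both held GGGCGG. A match is a description of the letters and not a bound site.

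In the epithelial clusters summed, 4 of the 6 genes were at least 2-fold lower in W. Of all 11804 genes that passed the count filter there, 7.58% were lower by this rule. *Pygl* was 8.97-fold lower, *Gyg* 4.34-fold, *Ppp1r3c* 4.13-fold and *Gbe1* 2.42-fold. *Gys1* was 2.12-fold higher, in a comparison in which 17.1% of all genes were higher by at least 2-fold, and *Ugp2* differed little. The median log2 ratio of W over UW was -1.66 for the 6 genes and 0.16 for all genes that passed. Since the 6 genes were chosen with earlier results of these data known, these counts and medians are descriptions. Sorted from the most lowered, *Pygl* stood at rank 48, *Gyg* at 160, *Ppp1r3c* at 178 and *Gbe1* at 525 of 11804.

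**Figure D1:**
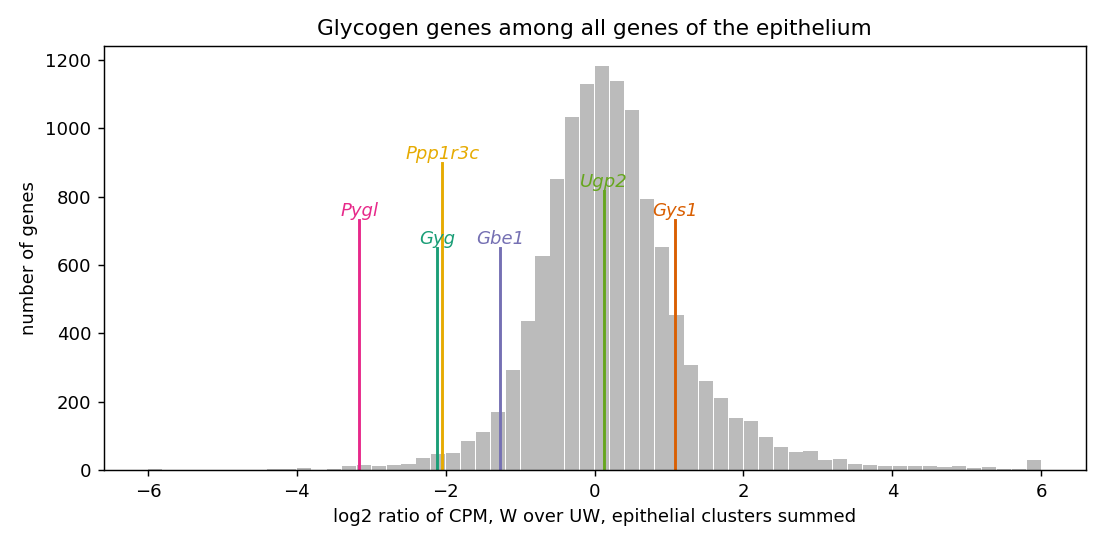
The log2 ratio of CPM in W over UW with the epithelial clusters summed (x axis) is drawn as a histogram of the number of genes (y axis, bars of 0.2 with values beyond 6 placed in the end bars) over 11804 genes, with a coloured line at each glycogen gene; the height of the lines has no meaning. *Pygl*, *Gyg*, *Ppp1r3c* and *Gbe1* lie in the left tail at -3.16, -2.12, -2.04 and -1.27, *Ugp2* near the middle at 0.13 and *Gys1* to the right at 1.08.

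Of the genes that build the particle, *Gyg*, which encodes its primer, held 287 CPM in the epithelium of UW (95653 counts) and 66.1 CPM in that of W (15807 counts). The log2 ratio was -2.12, with an interval of -2.14 to -2.09. All 10 epithelial clusters were lower in W, and 9 by at least 2-fold. The difference was largest in basal-like cluster 3, from 524 to 70.7 CPM (log2 ratio -2.89), and smallest in the terminal cells of cluster 7, from 25.7 to 14.8 CPM (-0.80). With TMM factors cluster 7 gave -1.18, past 2-fold and level with cluster 9 (-1.18). In cluster 7, *Gyg* stood at 8.96% of its epithelial CPM in UW and 22.4% in W, and the part of RNA from broken cells was not tested. From highest to lowest in UW, the clusters were 1, 3, 11, 4, 8, 2, 9, 5, 6 and 7, with 540 to 25.7 CPM, a 21.0-fold range in which no neighbours had overlapping intervals. In W the same range was 8.57-fold, from 127 CPM in cluster 1 to 14.8 in cluster 7, and clusters 2, 3 and 8 overlapped at 73.8, 70.7 and 69.4 CPM. Basal-like cells thus stood next to the highest cluster in UW and among the middle clusters in W.

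*Gyg* was also seen in fewer cells. A UMI of it was found in 85.7% of epithelial cells of UW (interval 85.1% to 86.3%) and in 61.4% of those of W (60.3% to 62.4%). With every cell thinned to 5000 UMIs, so that depth was equal, the shares were 61.7% and 22.1%. Shallower cells were left out of the thinned shares, which covered 13134 of the 13501 epithelial cells of UW and 8331 of the 8507 of W.

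*Gbe1*, the branching enzyme, went from 22.1 to 9.12 CPM in the epithelium, a log2 ratio of -1.27 (-1.34 to -1.20). Its levels in UW were even, with a 2.46-fold range over epithelial clusters from 28.8 CPM in cluster 2 to 11.7 in cluster 7. In W, clusters 6, 7, 2, 5, 1 and 4 made up the lower end, overlapping neighbour by neighbour. It was lower by at least 2-fold in 6 of 10 epithelial clusters. Cluster 4 went from 25.96 to 3.80 CPM (-2.77), cluster 2 from 28.8 to 6.07 (-2.25), cluster 1 from 19.5 to 5.43 (-1.85) and cluster 6 from 24.1 to 7.72 (-1.64). The conjunctival-like cluster 5 (17.9 to 6.03, -1.57) and mitotic cluster 8 (24.5 to 11.99, -1.03) were the others. With TMM factors cluster 8 fell short of 2-fold (-0.92) and cluster 7 passed it (-1.32), and without called doublets cluster 8 gave -0.96. Basal-like cluster 3 (21.2 to 13.6 CPM, -0.64), S phase cluster 11 (23.4 to 14.6, -0.68), cluster 7 (11.7 to 6.11, -0.94) and limbal-like cluster 9 (14.2 to 11.6, -0.29) were lower by less than 2-fold, and the interval of cluster 9 (-0.61 to 0.04) held 0. *Gbe1* thus differed by less in the basal-like cluster than in the suprabasal-like ones, the reverse of *Gyg*. The difference between clusters was not tested.

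*Gys1*, the synthase, was sparse. It held 1.81 CPM in the epithelium of UW (604 counts) and 3.84 CPM in that of W (918 counts), a log2 ratio of 1.08 (0.93 to 1.23). It was higher by at least 2-fold in no epithelial cluster in which it passed the filter, while with cells thinned to 5000 UMIs clusters 11 (1.52), 5 (1.22) and 1 (1.08) were past 2-fold. In cluster 4 the log2 ratio was 0.60 and ran from -0.64 to 0.66 over the alternatives run, so its sign turned. Clusters 1, 3 and 11 gave log2 ratios of 0.86, 0.76 and 0.76, and the 2 clusters with larger ratios, 6 and 7, held 7 and 8 and 5 and 8 counts in UW and W, below the filter. In limbal-like cluster 9 it was lower, at 8.01 CPM in UW and 5.30 in W (-0.60, -1.04 to -0.13). With other scalings of the epithelial sums the log2 ratio was 0.87 (TMM factors) or 0.85 (size factors), and with clusters weighted alike in both libraries it was 0.60, all under 2-fold.

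*Ugp2*, which supplies UDP-glucose, held 31.4 CPM in the epithelium of UW and 34.3 in that of W. The log2 ratio of 0.13 turned to -0.09 with TMM factors and to -0.15 with clusters weighted alike. In no epithelial cluster did it differ by 2-fold, and the cluster ratios ran from -0.40 in cluster 4 to 0.61 in cluster 7. Its levels in the epithelial clusters of UW ran from 10.1 CPM in cluster 7 to 55.9 CPM in mitotic cluster 8, with clusters 8, 11, 3 and 9 overlapping neighbour by neighbour at the top of these.

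*Pygl*, the phosphorylase that opens the store, was the most lowered of the 6. It held 57.0 CPM in the epithelium of UW (18965 counts) and 6.35 CPM in that of W (1518 counts), a log2 ratio of -3.16 (-3.24 to -3.09). In UW its level was highest of the epithelial clusters in suprabasal-like cluster 1 (169 CPM), then basal-like cluster 3 (102), cluster 4 (72.4), cluster 8 (60.02), cluster 11 (56.5), cluster 2 (17.0), cluster 9 (9.19), cluster 5 (7.68), cluster 6 (2.66) and cluster 7 (2.42), a 69.7-fold range. Intervals overlapped between clusters 8 and 11, between 9 and 5 and between 6 and 7. In W, clusters 1 and 4 were the highest of the epithelial clusters at 17.1 and 17.0 CPM, about the level of cluster 2 in UW. *Pygl* was thus concentrated in the basal-like to suprabasal-like cells of UW and lowest in superficial-like cluster 6 and terminal cluster 7.

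*Pygl* was lower by at least 2-fold in 8 of 10 epithelial clusters. The log2 ratio was -3.66 in mitotic cluster 8 (60.02 to 4.76 CPM), -3.42 in cluster 3 (102 to 9.48), -3.30 in cluster 1 (169 to 17.1), -3.25 in cluster 9 (9.19 to 0.96), -3.03 in cluster 5 (7.68 to 0.94), -2.89 in cluster 11 (56.5 to 7.64), -2.27 in cluster 7 (2.42 to 0.50, 88 and 6 counts) and -2.09 in cluster 4 (72.4 to 17.0). The superficial-like clusters 2 (17.0 to 8.78, -0.96) and 6 (2.66 to 1.61, -0.73) were the exceptions, of which cluster 2 gave -1.003 as a mean per cell and cluster 6 -1.54 with thinned cells, both past 2-fold. In cluster 7, *Pygl* stood at 4.26% of its epithelial CPM in UW and 7.91% in W, near the shares of *Krt12* in clusters 0 and 10 (5.81% to 7.05%). The part of free RNA in that ratio, and in the ratio of cluster 5, was not tested. A UMI was found in 45.4% of epithelial cells of UW and 13.1% of those of W, or 21.2% and 3.0% with cells thinned to 5000 UMIs. In cluster 1 the unthinned shares were 88.7% and 27.2%, and the thinned shares 54.2% and 7.7%.

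*Ppp1r3c*, the targeting subunit of protein phosphatase 1, held 24.1 CPM in the epithelium of UW and 5.83 CPM in that of W, a log2 ratio of -2.04 (-2.13 to -1.96). Unlike *Pygl* and *Gyg*, its peak in UW lay in superficial-like cluster 2 (59.96 CPM), followed by suprabasal-like cluster 4 (34.4) and basal-like cluster 3 (23.6). Cluster 7 had the least, 1.32 CPM, a 45.3-fold range. This level was 5.50% of the epithelial CPM, near the shares of *Krt12* in clusters 0 and 10 (5.81% to 7.05%), and in W the share was 12.9%. The part of free RNA in these values was not tested. *Ppp1r3c* was lower by at least 2-fold in 8 of 10 epithelial clusters, from 59.96 to 12.1 CPM in cluster 2 (-2.30) and from 5.78 to 0.68 CPM in limbal-like cluster 9 (-3.08, 44 and 17 counts). Conjunctival-like cluster 5, also among the 8, held 2.64 and 0.77 CPM (71 and 28 counts), and the part of free RNA there was not tested. The exceptions were cluster 1, the cluster with the highest *Pygl* (14.7 to 10.99 CPM, -0.42), and cluster 7 (1.32 to 0.75 CPM, -0.81), which passed 2-fold with TMM factors (-1.19). In W, clusters 4, 2 and 1 overlapped at 13.7, 12.1 and 10.99 CPM, neighbour by neighbour.

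**Figure D2:**
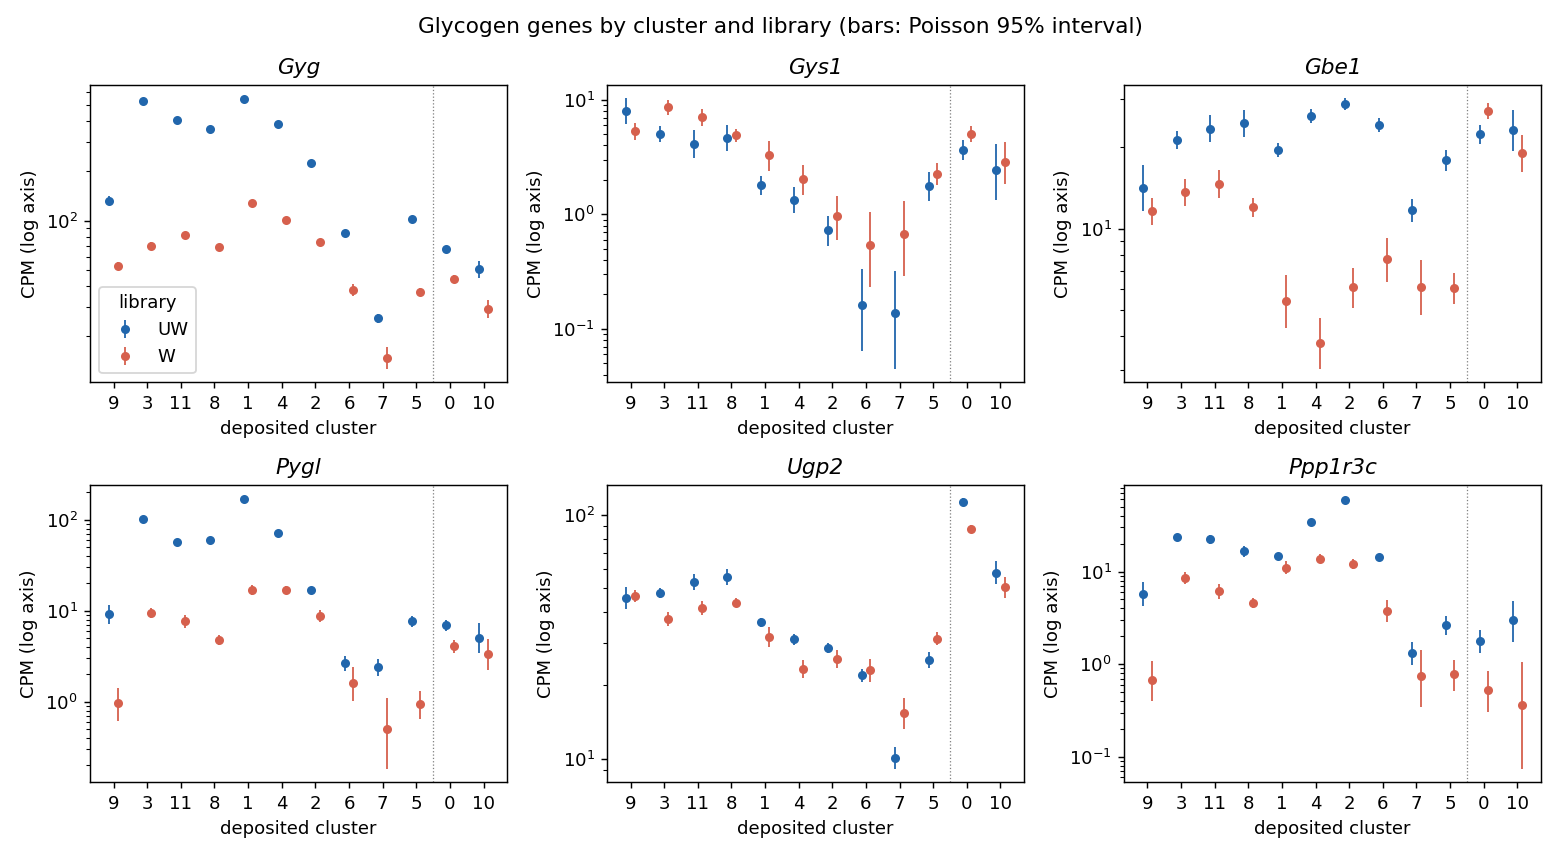
Each panel gives 1 gene, with the deposited clusters on the x axis (epithelial to the left of the dotted line, 0 and 10 to the right) and the CPM of the summed counts on a log y axis that differs between panels, for UW (blue) and W (red); bars are exact Poisson 95% intervals. In UW, *Gyg* and *Pygl* peak in cluster 1 at 540 and 169 CPM and *Ppp1r3c* in cluster 2 at 59.96 CPM, and the red points of these 3 genes lie below the blue ones in every cluster drawn.

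A mix of clusters that differs between libraries could move a sum, since cluster 1 made up 14.96% of the cells of UW and 4.76% of those of W. When each cluster was given the weight it had in UW, the log2 ratios were -2.00 for *Gyg*, -2.75 for *Pygl*, -1.63 for *Ppp1r3c* and -1.59 for *Gbe1*. All 4 were still lower by at least 2-fold. By cluster, the same 4 genes were lower by at least 2-fold in 6 or more of the 10 epithelial clusters, and 4.66% of the 9203 genes that passed the filter in all 10 were lower in as many. With cells thinned to 5000 UMIs the count was 2, since *Pygl* and *Ppp1r3c* then missed the filter in some clusters, and without called doublets it was 3, since *Gbe1* in cluster 8 was then short of 2-fold. The cutoff of 6 clusters was set after the values were seen.

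**Figure D3:**
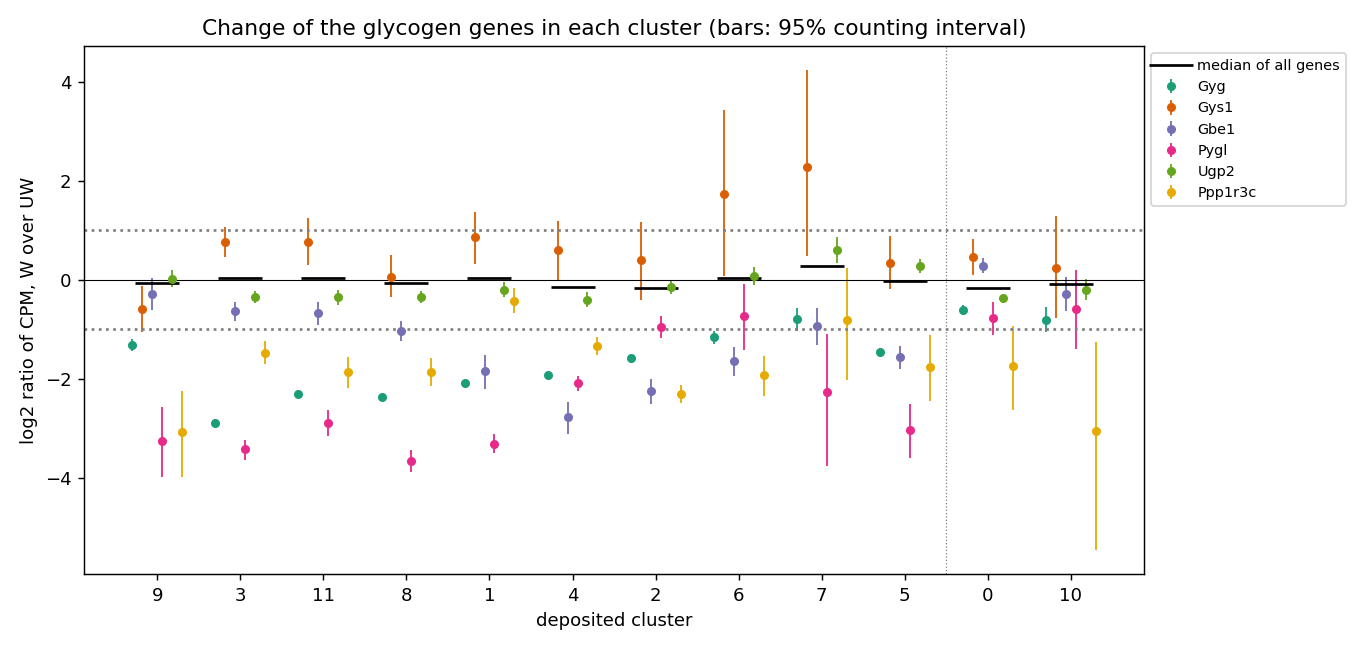
The log2 ratio of CPM in W over UW (y axis) is given for each gene (coloured points) in each deposited cluster (x axis; epithelial to the left of the dotted vertical line), with exact 95% counting intervals, black dashes at the median of all genes of that cluster and dotted lines at a 2-fold difference. *Gyg*, *Pygl*, *Gbe1* and *Ppp1r3c* lie below 0 in every epithelial cluster, *Ugp2* stays between -0.40 and 0.61, and *Gys1* is above 0 in 9 of 10.

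In stromal keratocyte-like cluster 0, 1 of the 6 genes was lower by at least 2-fold, beside 8.86% of 12974 genes, and none was higher, beside 6.22%. There, the median log2 ratio was -0.49 for the 6 genes and -0.16 for all genes. *Ugp2* had its highest level of all compared clusters here, 113 CPM in UW and 87.7 in W (-0.37). *Gyg* went from 67.4 to 44.3 CPM (-0.61) and *Pygl* from 6.96 to 4.07 CPM (-0.78). *Gbe1*, lower in the wounded epithelium, held 22.3 CPM in UW and 27.2 in W here (0.29, 0.14 to 0.44). *Gys1* went from 3.66 to 5.05 CPM (0.47), a log2 ratio that ran from -0.03 to 0.64 over the alternatives run. The lowered gene was *Ppp1r3c*, with 50 and 17 counts (1.76 and 0.52 CPM).

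In cluster 10 the lowered gene was also *Ppp1r3c*, with 17 and 3 counts (log2 ratio -3.05, -5.46 to -1.26), beside 6.63% of 12441 genes, and none was higher, beside 4.97%. The median was -0.44 for the 6 genes and -0.09 for all genes. *Gyg* went from 51.0 to 29.2 CPM (-0.80), *Ugp2* from 58.1 to 50.6 (-0.20) and *Gbe1* from 23.1 to 18.99 (-0.28). A count of 1 in 6 is no result about the genes in either cluster.

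Markers of the cells themselves also differed between the libraries. The keratocyte gene *Kera* held 7482 CPM in cluster 0 of UW and 2537 in that of W, and the corneal keratin gene *Krt12* 26753 CPM in the epithelium of UW and 12352 in that of W, both lower by more than 2-fold, and the part of this in the results was not tested. RNA of broken epithelial cells can enter any droplet, so *Krt12* was followed as a measure of it. In cluster 0 it stood at 5.81% of its epithelial CPM in UW and 5.96% in W, and in cluster 10 at 6.69% and 7.05%. *Ppp1r3c* stood at 7.31% and 8.98% of its epithelial CPM in cluster 0, near those shares, and *Pygl* at 12.2% and 64.0% and *Gyg* at 23.4% and 67.0%, above them. In cluster 10, *Ppp1r3c* stood at 12.4% and 6.18% and *Pygl* at 8.92% and 53.0%. The part of free RNA in the stromal values was not tested.

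The immune clusters had too few cells in UW (at most 7) for a comparison, so their levels in W are given alone. *Pygl* held 39.8 CPM (73 counts) in neutrophil-like cluster 13 and 31.4 CPM (85 counts) in macrophage-like cluster 15, which is 626% and 494% of its epithelial CPM in W. In cluster 14 it held 16.01 CPM and in T cell-like cluster 16 9.62 CPM. *Gbe1* held 30.0 CPM in cluster 13, and *Gys1* 17.3 CPM in cluster 15, its highest level in any cluster. *Ugp2* held 76.7 CPM in cluster 15. *Ppp1r3c* had 0 counts in cluster 16, which allows up to 2.89 CPM when 0 is taken to allow 3 counts, or 3.55 CPM by the exact Poisson interval. *Krt12* stood at 29.0% of its epithelial CPM in cluster 13, 49.0% in 14, 10.1% in 15 and 17.0% in 16, and *Gyg* at 48.6%, 70.2%, 30.1% and 45.1%, so both had the same order of these 4 clusters. The part of free epithelial RNA in the immune values was not tested.

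Over clusters 0 to 11 of both libraries (24 points, which share libraries, depth and cells of neighbouring types), the levels of *Gyg* and *Pygl*, as log2(CPM + 1), ran closest together of the 6 genes, with Pearson's r = 0.94 (0.95 within UW, 0.86 within W). *Gyg* and *Ppp1r3c* had r = 0.83, *Gys1* and *Ugp2* 0.72, and *Gbe1* and *Ppp1r3c* 0.24, a pair with 0.68 within UW and -0.48 within W. *Gbe1* and *Ugp2* had 0.50, and 0.86 within W, as high as *Gyg* and *Pygl* there. Among all 5304 genes that reached 50 CPM in a point, *Gyg* was also the gene most like *Pygl*, followed by *Sphkap* (0.94) and *Hace1* (0.91). The gene most like *Gyg* was *Mgea5* (0.97), which encodes the enzyme that takes O-GlcNAc sugars off proteins, followed by *Hace1* (0.95) and *Sphkap* (0.95). *Gys1* was most like *Mybbp1a* (0.96), *Rrp15* (0.95) and *Taf1d* (0.95), the former pair being nucleolar and ribosome-assembly genes. *Gbe1* was most like *Ivns1abp* (0.93), *Ugp2* most like *Lman1* (0.96), a cargo receptor of the secretory pathway, and *Ppp1r3c* most like *Slco3a1* (0.91). These are descriptions over points that are not independent.

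In the epithelial clusters summed, the other genes of the pathway were, at their median, near the level of UW. By cluster, their median log2 ratio ran from -0.58 in cluster 4 to 0.08 in cluster 7, beside -0.15 and 0.28 for all genes there. It lay below the median of all genes in each epithelial cluster. Of a list of 31 genes, 27 were found in the table, and the other 4 (*Gyg2*, *Ppp1r3a*, *Ppp1r3g* and *G6pc*) were not analysed here. In the epithelial sum 20 passed the filter, where 1 was lower (7.58% of all genes were) and 1 was higher (17.1% of all genes were). The median log2 ratio of the sum was 0.07, beside 0.16 for all genes. The lowered one was *Phkb*, the regulatory beta subunit of phosphorylase kinase, which switches phosphorylase on. It held 28.7 CPM in UW and 11.7 in W (-1.30, -1.36 to -1.24) and was lower by at least 2-fold in 8 of 10 epithelial clusters. The catalytic subunit gene *Phkg2* went from 9.60 to 11.5 CPM (0.26). The higher one was *Stbd1*, a glycogen-binding protein that hands glycogen to lysosomes, at 1.77 and 3.63 CPM. It was higher by at least 2-fold in 0 of the 8 epithelial clusters where it passed, with log2 ratios from -0.73 to 0.85. Its log2 ratio of 1.04 was 0.82 with TMM factors, under 2-fold.

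Isozymes of the members gave other values. *Pygb*, the phosphorylase known from brain, held 10.1 CPM in UW and 10.7 in W (0.08), and *Pygm*, that of muscle, and *Gys2*, the synthase of liver, were under the filter with 104 and 36 counts in all. Of the other targeting subunits, *Ppp1r3b* had 25 and 174 counts (log2 ratio 3.28) and *Ppp1r3d* 285 and 199 (-0.04), both under 1 CPM in each library. Of the epithelial clusters, *Ppp1r3b* passed the filter in conjunctival-like cluster 5, with 10 and 67 counts and a log2 ratio of 2.32. *Ppp1r3e* went from 2.28 to 1.39 CPM (-0.71) and was lower by at least 2-fold in 5 of 10 epithelial clusters, and *Ppp1r3f* went from 1.37 to 1.16 CPM (-0.23) and was lower in 2. *Pgm1*, which turns glucose-1-phosphate and glucose-6-phosphate into each other, held 21.3 CPM in UW and 36.3 in W (0.77, under 2-fold). It was higher by at least 2-fold in 6 of 10 epithelial clusters. The share of all genes that differed by 2-fold in as many clusters was not computed for *Pgm1*, *Ppp1r3e* or *Ppp1r3f*. Their cluster counts are descriptions. The synthase kinase gene *Gsk3b* went from 266 to 150 CPM (-0.82), and passed the fold with TMM factors (-1.04).

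In cluster 0, 25 of the 27 genes passed, and 2 were lower, beside 8.86% of all genes, the targeting subunits *Ppp1r3d* (4.25 to 1.29 CPM, -1.72) and *Ppp1r3b* (2.39 to 1.02 CPM, -1.23). *Pgm2l1*, a relative of the phosphoglucomutases, was higher (5.66 to 12.97 CPM, 1.20), beside 6.22% of all genes. In cluster 10, 24 passed and *Ppp1r3d* was lower, beside 6.63% of all genes, with 14 and 10 counts (-1.03, -2.36 to 0.25, an interval that held 0), a ratio of -0.92 and so under 2-fold with TMM factors, and none was higher.

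**Figure D4:**
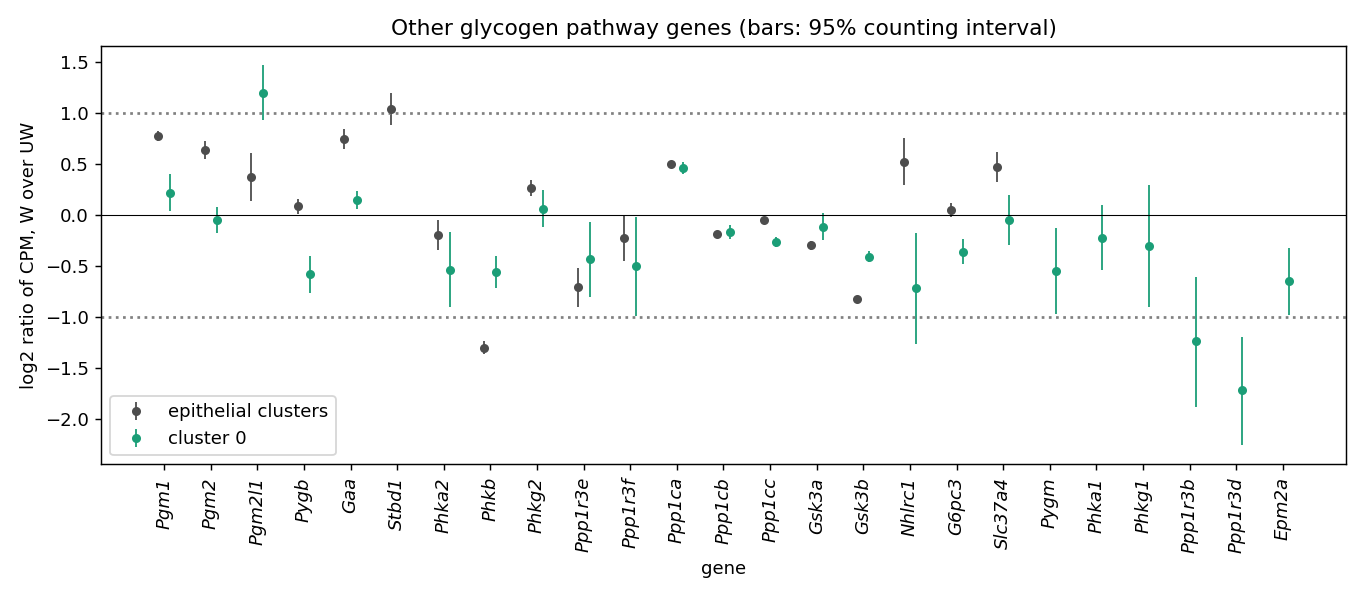
The log2 ratio of CPM in W over UW (y axis) of the other pathway genes that passed the filter and are reported here (x axis) is given in the epithelial clusters summed (grey) and in stromal keratocyte-like cluster 0 (green), with exact 95% counting intervals and dotted lines at a 2-fold difference. *Phkb* at -1.30 and *Stbd1* at 1.04 are the grey points past the lines, and *Ppp1r3d*, *Ppp1r3b* and *Pgm2l1* the green ones.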

How the data were processed

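Corneal cells of 2 libraries, UW and W, were profiled on the 10x Genomics platform (kit V2 in the methods of the study, v3 in the labels). The authors deposited UMI counts per gene and cell without normalization, made with Cell Ranger 3.1.0 (mm10 in the methods, mm9 in the submitters' processing notes), after a long cold dispase digestion of the tissue, filtering of cells, and removal of doublets and of cells with a dissociation signature, and a table with each cell's library and Seurat cluster. The study states more cells after its filtering, for each library, than the tables used here hold.

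Counts were summed per cluster and library and divided by the summed UMIs (CPM). Exact Poisson intervals for levels, exact conditional binomial intervals for ratios and exact Clopper-Pearson intervals for shares were made with scipy 1.17.1 in Python 3.11.15 at the 95% level, and cover counting error only. With 1 library per condition no p-value was given. The sums held 332977270 (UW) and 239014699 (W) UMIs in the epithelium, and 5710692 and 8319091 in cluster 10, the smallest group compared. Alternatives used TMM factors (edgeR 4.0.16), size factors (DESeq2 1.42.0), no count filter, stricter cells (1000 genes, 5% mitochondrial UMIs), no called doublets, means per cell, thinning to 5000 UMIs, fixed weights of clusters and other epithelial clusters. One more, without the 52 barcodes found in both libraries, was chosen after seeing the data.

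The rule for named genes took the 6 genes, the pathway genes past the fold, isozymes, and the 3 genes most like each member. For *Gbe1*, *Ugp2* and *Ppp1r3c* only the closest gene was named. *Pgm1*, *Gsk3b*, *Phkg2*, *Ppp1r3e* and *Ppp1r3f* were named after their values were seen. The values of 1 gene of the pathway list, which its counts and medians include, are not reported here. The genes and lists were chosen with earlier results of these data known. The computation was checked on simulated counts.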

Additional observations from a re-analysis of the deposited data

Results flagged for a closer look

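The log2 ratio of W over UW had opposite signs in different cells for 3 of the genes, and these differences were not tested. *Gbe1* was higher in W in stromal keratocyte-like cluster 0 and lower in the epithelium, a difference of 1.56 on the log2 scale. *Ugp2* was lower in cluster 0 and slightly higher in the epithelium (difference -0.50), where its sign turned with the scaling. Within the epithelium, *Ugp2* was higher in terminal cluster 7 and lower in suprabasal-like cluster 4 (difference 1.006). Over the alternatives run, its log2 ratio ran from 0.04 to 0.69 in cluster 7 and from -0.68 to -0.35 in cluster 4. *Gys1* was higher in cluster 7 and lower in limbal-like cluster 9 (difference 2.88), with 5 and 8 counts of *Gys1* in cluster 7.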

How the results depend on the processing

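Of the log2 ratios of the 6 genes recomputed, 550 lay within the 95% counting interval of the reported ratio and 85 outside it, and no ratio past 2-fold changed sign. In the epithelium, the log2 ratios ran from -3.40 to -2.75 for *Pygl*, -2.38 to -2.00 for *Gyg*, -2.28 to -1.63 for *Ppp1r3c* and -1.59 to -1.26 for *Gbe1*, so these 4 genes were lower by at least 2-fold under each alternative run. The median of the 6 genes there was -1.88 with TMM factors, -1.89 with size factors and -1.57 with thinned cells. These scalings moved the median of all genes from 0.16 to -0.06 and -0.08. No gene was higher by 2-fold in the epithelium (0, against 1) with TMM factors, size factors, means per cell, thinned cells or the same mix of clusters, since *Gys1* fell under 2-fold. In cluster 0 the median was -0.34 with TMM factors and -0.31 with size factors. In cluster 10 the count of lowered genes was 0 with stricter cells and with thinned cells, where *Ppp1r3c* had too few counts. With thinned cells, 2 genes were lower in 6 or more epithelial clusters, against 4, because *Pygl* and *Ppp1r3c* no longer passed the filter in every cluster, and *Pygl* in cluster 7 gave no value (0 counts in W). Leaving out the 52 shared barcodes changed no call. No paired analysis was possible because there was 1 library per condition, and for the same reason no replicate could be left out.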
